A study of Mus musculus with 12 samples.

Results

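The genes described here are the 4 Id genes (Id1, Id2, Id3 and Id4) and 6 genes of the BMP pathway that feeds them: the ligands Bmp2, Bmp4 and Bmp7, the secreted antagonist Grem1 and the inhibitory Smads Smad6 and Smad7. They are 10 of the 54109 genes in the count table, and each was found by its symbol. Id1 was picked because it was lower in knockout than in wild-type colon, so the colon difference of Id1 is what chose it and is given as a description. RNA was sequenced from 12 mouse libraries that fall into 4 groups of 3. All mice had acute colitis induced by dextran sulfate sodium (DSS), a sulfated polysaccharide that injures the colonic epithelium. They were either wild type (WT) or Gpr15l-/- (KO), lacking the ligand of the receptor GPR15. RNA came either from full colon tissue or from LPMC, the label's abbreviation. There was no group without DSS, so every difference below is between mice with colitis. The labels do not say whether libraries came from separate animals, and give neither age, sex nor strain. P-values therefore measure only the spread between these libraries, which may in part be technical.

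Bone morphogenetic proteins (BMPs) are secreted ligands that bind paired receptor kinases. The receptors phosphorylate the carrier Smads (Smad1, Smad5 and Smad9), which join Smad4, enter the nucleus and switch on target genes, the Id genes among the most direct of them. Id proteins are helix-loop-helix proteins with no DNA-binding region: they hold E proteins away from DNA and so restrain differentiation. In the gut, BMP signalling is strong near the luminal surface and weak at the crypt base, where stromal cells release antagonists such as gremlin 1. Smad6 and Smad7 are made in response to the signal and block it.

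RefSeq promoter windows (GRCm38.p6; 250 bases before each start and 50 after) were matched for 6 members: Id2, Id3, Id4, Bmp4, Smad6 and Grem1. They were searched on both strands for 3 letter strings that bind Smads or are known from BMP-responsive promoters. The first, GGCGCC, reads the same on both strands and lay in the windows of Id2, Id4 and Grem1, and in 11.9% of 32851 promoters of the same length. The other short string, CAGAC, which reads as GTCTG from the opposite strand, lay in those of Id3 and Grem1, 2 copies in each, and in 49.6% of promoters, so it is common. The palindrome GTCTAGAC, which overlaps neither of the others here, lay in the window of Smad6 and in 70 of the 32851 promoters, or 0.213%. Bmp4 held none of the 3 strings in this window. The windows of Id2, Id3, Id4 and Smad6 are shown because they cover the 3 strings in the Id genes and in a feedback inhibitor. Capitals mark the strings. The Id2 stretch (chr12:25096254-25096342, minus strand) is the part of the window that holds no annotated exon base and lies in an intron of a longer GENCODE M21 transcript, and both Id3 stretches (chr4:136143645-136143669 and chr4:136143744-136143768, plus strand) lie within the first exon of the annotated Id3 transcript. Id4 (chr13:48260866-48261145, plus strand) and Smad6 (chr9:64022030-64022309, minus strand) are shown up to 30 bases after the start.
Id2: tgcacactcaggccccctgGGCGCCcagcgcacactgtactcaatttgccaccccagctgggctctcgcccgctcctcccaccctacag
Id3, upstream copy: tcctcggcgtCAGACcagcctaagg
Id3, downstream copy: acccttggcgGTCTGttttgaataa
Id4: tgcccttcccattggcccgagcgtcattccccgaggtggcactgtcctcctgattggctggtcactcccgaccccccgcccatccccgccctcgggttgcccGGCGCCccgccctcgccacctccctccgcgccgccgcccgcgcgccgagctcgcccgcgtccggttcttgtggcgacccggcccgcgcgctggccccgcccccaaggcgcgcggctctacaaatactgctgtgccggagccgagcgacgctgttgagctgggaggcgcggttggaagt
Smad6: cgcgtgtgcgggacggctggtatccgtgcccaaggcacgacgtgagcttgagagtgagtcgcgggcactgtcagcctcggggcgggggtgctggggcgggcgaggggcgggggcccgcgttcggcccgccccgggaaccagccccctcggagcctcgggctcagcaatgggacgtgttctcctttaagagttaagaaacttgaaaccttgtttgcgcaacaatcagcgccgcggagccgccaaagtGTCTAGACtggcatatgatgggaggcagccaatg
The palindrome of Smad6 begins 4 bases before the start, at -4. The Id2 and Id4 strings begin at -231 and -148. A match is a description of the letters and not a measured binding site.

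Library totals were 45.4 to 140.7 M counts (M for 1e6). The deleted gene, listed as 2610528A11Rik, had 15639 to 80362 counts in WT and 14 to 20 in KO colon libraries, and 18619 to 32405 in WT and 4 to 10 in KO LPMC libraries, so all libraries matched their genotype labels. The tissue labels were checked on marker lists, none of whose genes was at 0 in any library. LPMC libraries were higher than colon for 8 of 8 fibroblast, 6 of 8 endothelial and 8 of 9 T cell and innate lymphoid markers, and lower for 5 of 8 epithelial markers. For 8 macrophage and monocyte markers 0 were higher and 1 was lower. Of 6 neutrophil markers 1 was higher and 1 lower. Of 4 B cell and 8 smooth muscle markers, 0 were higher and 0 lower. Over all genes, 25.4% were higher and 24.9% lower, by the test described below. Epithelial RNA was still plentiful in LPMC: the 8 epithelial markers summed to 9063 to 12950 CPM (counts per 1e6) there, against 15430 to 29800 CPM in colon. LPMC libraries are therefore called by their label and not taken as pure leukocytes. Some libraries stood apart within their tissue. Colon WT replicate 1 had 566.9 CPM summed over 4 B cell markers, where the remaining colon libraries had 1.42 to 11.81 CPM. Colon KO replicate 2 lay alone on the first principal component, with the highest epithelial sum. LPMC WT replicate 3 and LPMC KO replicate 2 lay together on that of LPMC, with the lowest fibroblast sums of LPMC. In bulk RNA, fewer cells of a type and less RNA per cell cannot be told apart.

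All levels below are CPM after TMM scaling over the 12 libraries, in the order of replicates 1, 2 and 3. Differences are log2 fold changes with their standard error (SE), tested with edgeR's quasi-likelihood test and called at a Benjamini-Hochberg adjusted p under 0.05 over all genes tested. Between LPMC and colon, 6 libraries against 6, the Id genes split. Id1 was lower in LPMC, and Id2, Id3 and Id4 were higher. Of the 10 members, 4 were called higher and 1 lower, against 25.4% of 20989 genes called higher and 24.9% called lower in that comparison. The share of members called was thus close to the background, and the members' median log2 fold change was 0.56 against 0.01 over all genes. Between KO and WT, none of the 10 members was called in either tissue.

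Id1 (ENSMUSG00000042745, chr2:152736251-152737410, plus strand), an Id gene strongly induced by BMPs, was the most abundant Id gene in the colon. Its level was 429.5, 732.1 and 550.4 CPM in WT colon and 223.8, 289.3 and 236.1 CPM in KO colon. All KO colon libraries lay below all WT ones. The difference that chose Id1 was -1.20 (SE 0.24), or 2.30-fold lower in KO. With each colon library left out in turn it lay between -1.37 and -0.98, the latter without WT replicate 2. Without the libraries that stood apart it was -1.49, but these held the lowest WT and the highest KO level of Id1 in colon. The sum of 6 neutrophil markers was also lower in KO than in WT colon. It was 539.6, 770.4 and 640.4 CPM in WT and 449.2, 259.7 and 374.9 CPM in KO. Within WT colon the neutrophil sum had the same order over the replicates as Id1. Within KO colon it did not: replicate 2 had the highest Id1 and the lowest neutrophil sum. The part of the neutrophil sum in the Id1 difference was not tested. In LPMC, Id1 was at 130.2, 119.6 and 118.4 CPM in WT and 156.6, 93.67 and 98.94 CPM in KO. These 2 groups overlapped, WT lying wholly within the KO range, and the difference was -0.08 (SE 0.20, adjusted p = 0.998 by edgeR). All 6 LPMC libraries were below all 6 colon libraries, by 1.66 on the log2 scale (SE 0.17, adjusted p = 2.52e-05, edgeR), or 3.16-fold. That tissue difference was -2.22 among WT libraries alone and -1.10 among KO libraries alone (adjusted p = 0.000146 and 0.00612, edgeR). Group means were ordered WT colon (570.7 ± 152.3 CPM, SD, n = 3), KO colon (249.7 ± 34.81), WT LPMC (122.7 ± 6.494) and KO LPMC (116.4 ± 34.91). The last 2 did not differ beyond their spread.

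Id3 (ENSMUSG00000007872, chr4:136143497-136145755, plus strand), a paralog of Id1 often induced with it, varied in the same way in colon. It was at 132, 167.6 and 106.4 CPM in WT colon and 51.93, 84.02 and 48.06 CPM in KO colon. The KO libraries again lay below all WT ones, with a difference of -1.15 (SE 0.28), or -1.47 without the libraries that stood apart. With each colon library left out in turn the difference lay between -1.45 and -0.97. In LPMC Id3 was at 175.9, 144.5 and 119.5 CPM in WT and 162.6, 116.5 and 123.4 CPM in KO, with overlapping groups (-0.13, SE 0.18, adjusted p = 0.998, edgeR). Unlike Id1, Id3 was higher in LPMC than in colon, by 0.62 (SE 0.18, adjusted p = 0.0127, edgeR), though the tissues overlapped. That difference was 1.13 among KO libraries (adjusted p = 0.00804) and 0.12 among WT libraries (adjusted p = 0.746), both by edgeR.

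Id2 (ENSMUSG00000020644, chr12:25093799-25097140, minus strand) is required for innate lymphoid and natural killer cells. It was at 15.96, 18.21 and 12.29 CPM in WT colon and 9.83, 20.69 and 11.84 CPM in KO colon, where the groups overlapped. In LPMC it was at 48.18, 37.15 and 47.73 CPM in WT and 55.16, 35.89 and 63.32 CPM in KO, again overlapping. Every LPMC library was above every colon library, by 1.69 (SE 0.21, adjusted p = 0.000104, edgeR), or 3.23-fold. The summed T cell and innate lymphoid markers moved with it, at 11.91 to 36.77 CPM in colon and 82.32 to 214.6 CPM in LPMC. Their part in the Id2 difference was not tested.

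Id4 (ENSMUSG00000021379, chr13:48261228-48266026, plus strand), the least abundant Id gene, was at 1.376, 2.346 and 3.41 CPM in WT colon and 2.293, 2.366 and 4.365 CPM in KO colon. In LPMC it was at 6.808, 6.091 and 5.699 CPM in WT and 6.365, 8.736 and 9.499 CPM in KO. LPMC libraries were all above colon libraries, by 1.41 (SE 0.26, adjusted p = 0.00115, edgeR), or 2.66-fold. KO and WT overlapped in both tissues (0.33, SE 0.45 in colon; 0.40, SE 0.22 in LPMC). The antisense genes overlapping Id4 had at most 17 counts in any library, fewer than Id4 in every library.

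**Figure D1:**
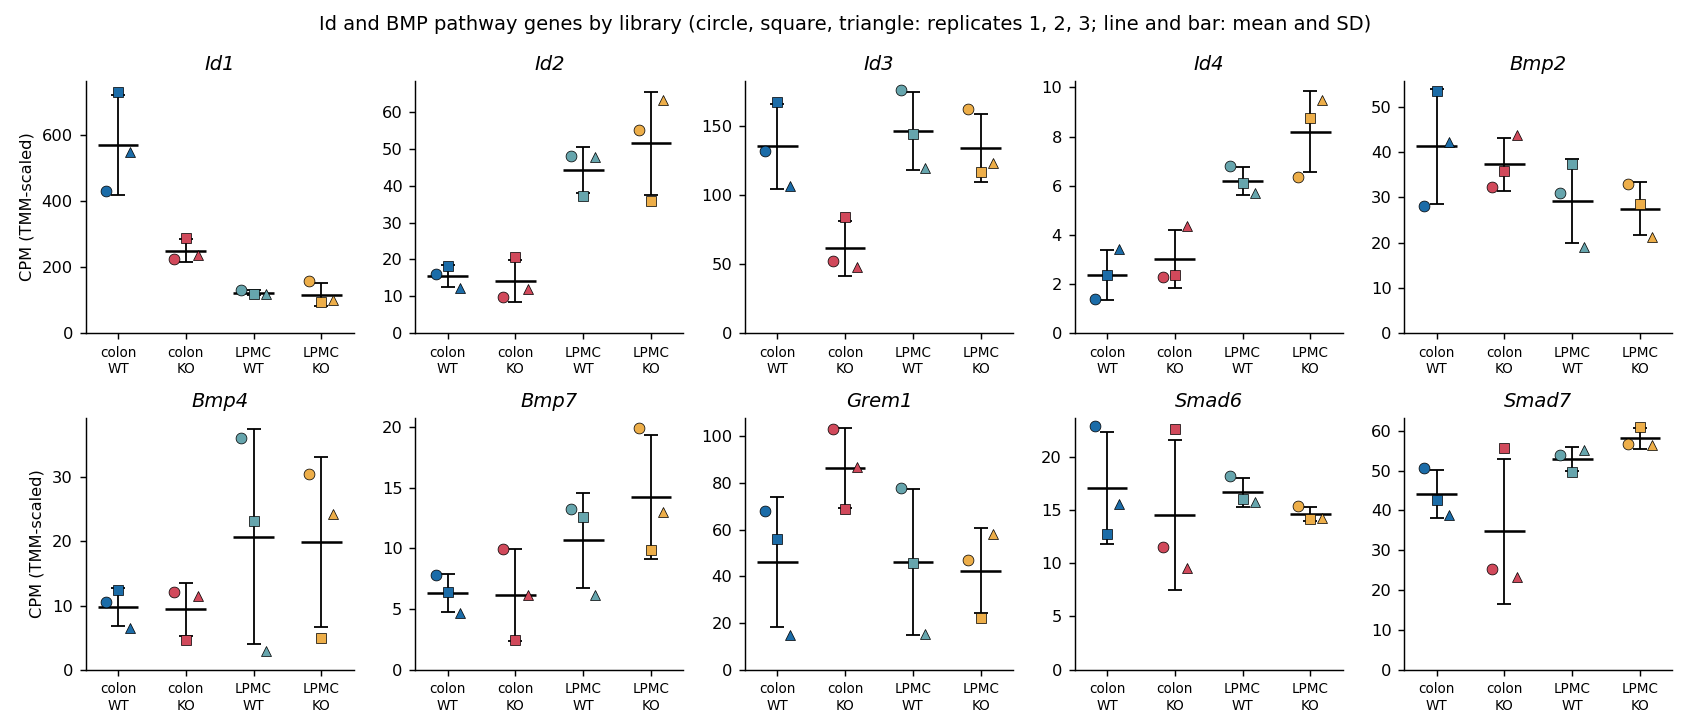
Levels of the 10 members by library, as TMM-scaled CPM on linear axes from 0, in the 4 groups of 3 libraries; circle, square and triangle are replicates 1, 2 and 3, and the line and bar are the mean and SD. Id1 and Id3 show KO colon below WT colon without overlap, while in LPMC their genotypes overlap; Smad6 and Smad7 have 1 KO colon library far above the other 2.

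Levels of different genes were compared only per kilobase (kb) of exon. In the colon, Id1 had 353.6 ± 173.8 CPM per kb (SD, n = 6), Id3 54.91 ± 26.06, Id2 6.072 ± 1.715 and Id4 0.6996 ± 0.2708. In LPMC the order was the same but the gaps were smaller: 103.1 ± 19.59 for Id1, 78.4 ± 13.83 for Id3, 19.65 ± 4.303 for Id2 and 1.871 ± 0.402 for Id4. Id1 made up 81.66 to 87.89% of the summed Id level per kb in every colon library and 46.7 to 53.98% in every LPMC library. The Id1 share overlapped between genotypes, at 82.12 to 87.89% in WT and 81.66 to 86.11% in KO colon. Id1 and Id3 were thus lower together in KO colon. The shares of Id2 (0.9341 to 1.452% in WT, 1.78 to 2.779% in KO) and Id4 (0.07931 to 0.1641% in WT, 0.2013 to 0.4799% in KO) were higher in KO colon. Since Id1 makes up most of the sum, these shares restate its lower level: the CPM of Id2 and of Id4 overlapped between genotypes.

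Among the ligands, Bmp2 (ENSMUSG00000027358, chr2:133552159-133562885, plus strand), made chiefly by surface epithelium in the gut, was at 28.08, 53.49 and 42.29 CPM in WT colon and 32.36, 35.95 and 43.82 CPM in KO colon. In LPMC it was at 31.09, 37.45 and 19.05 CPM in WT and 32.99, 28.49 and 21.18 CPM in KO. Genotypes overlapped in both tissues, and the tissue difference of -0.47 (SE 0.20) was not called (adjusted p = 0.0751, edgeR). Its genotype difference was -0.16 (SE 0.26) in colon and -0.09 (SE 0.27) in LPMC.

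Bmp4 (ENSMUSG00000021835, chr14:46383520-46390669, minus strand), a ligand made mainly by mesenchymal cells, was at 10.54, 12.36 and 6.463 CPM in WT colon and 12.03, 4.683 and 11.54 CPM in KO colon. In LPMC it was at 36.15, 23.21 and 2.869 CPM in WT and 30.47, 5.018 and 24.3 CPM in KO. The LPMC libraries spread 12.6-fold from lowest to highest, the widest of any member in either tissue. The low libraries, WT replicate 3 and KO replicate 2, were also those with the lowest sum of 8 fibroblast markers, 902.7 and 1070 CPM against 3421 to 5597 CPM in the other LPMC libraries. The part of the fibroblast share in the Bmp4 spread was not tested. The tissue difference of 1.08 (SE 0.58) was not called (adjusted p = 0.139, edgeR), but it was with LPMC WT replicate 3 left out, and it was 1.42 (adjusted p = 0.00201, edgeR) without the libraries that stood apart. An antisense gene over Bmp4, Gm15222, had up to 103 counts and the lowest Bmp4 count was 147, so some Bmp4 reads are uncertain if strand was not used in counting.

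Bmp7 (ENSMUSG00000008999, chr2:172868012-172940321, minus strand) is a ligand that signals through the same carrier Smads. It was at 7.811, 6.434 and 4.657 CPM in WT colon and 9.938, 2.415 and 6.132 CPM in KO colon. In LPMC it was at 13.28, 12.59 and 6.186 CPM in WT and 19.89, 9.841 and 12.97 CPM in KO. It was higher in LPMC, by 0.98 (SE 0.34, adjusted p = 0.0313, edgeR), although the tissues overlapped. This call was the least stable of the 5: it was lost with 6 of the 12 libraries left out one at a time (colon WT 2 or 3, colon KO 3, LPMC WT 1 or 2, or LPMC KO 1), the difference ranging from 0.77 to 1.23.

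Grem1 (ENSMUSG00000074934, chr2:113746164-113758646, minus strand) encodes gremlin 1, which binds BMP2, BMP4 and BMP7 and keeps them from their receptors. It was at 67.78, 55.98 and 14.93 CPM in WT colon and 103.1, 68.71 and 86.91 CPM in KO colon. All KO colon libraries were above all WT ones, though KO replicate 2 exceeded WT replicate 1 by less than 1 CPM. The difference was 0.88 (SE 0.50), the reverse of Id1 and Id3, without WT replicate 3 it was 0.48, and without the libraries that stood apart 1.41. In LPMC, Grem1 was at 77.8, 45.51 and 15.42 CPM in WT and 46.78, 22.32 and 58.07 CPM in KO, with overlapping groups (-0.12, SE 0.62, adjusted p = 0.998, edgeR). The tissues did not differ beyond their spread (-0.51, SE 0.44, adjusted p = 0.353, edgeR). In the colon the summed smooth muscle markers were 240.7, 1209 and 373.6 CPM in WT and 714, 2000 and 877.7 CPM in KO, and the fibroblast sums 566.2, 372.4 and 309.4 against 858.6, 284.4 and 1144 CPM. Their part in the Grem1 difference was not tested.

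**Figure D2:**
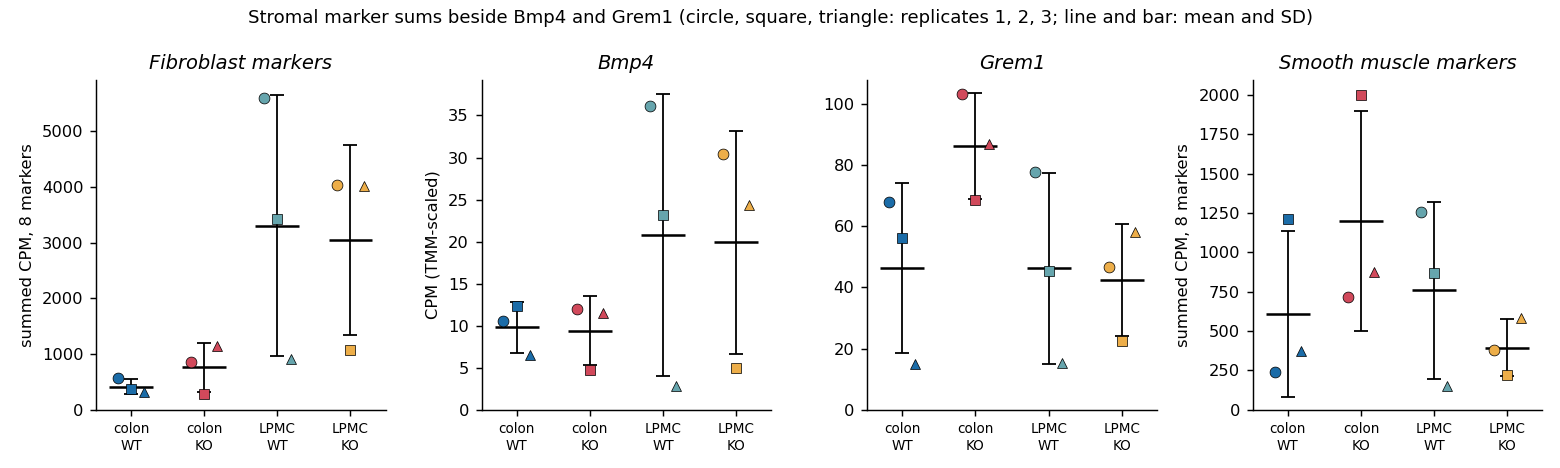
Summed CPM of 8 fibroblast and 8 smooth muscle markers beside Bmp4 and Grem1 (TMM-scaled CPM), by library in the 4 groups; circle, square and triangle are replicates 1, 2 and 3, and the line and bar are the mean and SD. LPMC WT replicate 3 and LPMC KO replicate 2 are lowest within their groups for fibroblast markers, Bmp4 and Grem1 alike.

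The inhibitory Smads moved together across colon libraries. Smad6 (ENSMUSG00000036867, chr9:63953076-64022059, minus strand), which competes with Smad4 for the carrier Smads, was at 22.89, 12.71 and 15.58 CPM in WT colon and 11.53, 22.6 and 9.526 CPM in KO colon. Smad7 (ENSMUSG00000025880), which blocks both BMP and TGF-beta receptors, was at 50.71, 42.58 and 38.91 CPM in WT colon and 25.34, 55.79 and 23.26 CPM in KO colon. For both genes, KO replicates 1 and 3 lay below all WT libraries and KO replicate 2 lay near or above the highest. The differences were -0.24 (SE 0.39) for Smad6 and -0.35 (SE 0.36) for Smad7, and without KO replicate 2 they were -0.72 and -0.88. At the other end, Smad6 was at 0.04 without WT replicate 1 and Smad7 at -0.14 without KO replicate 3. The epithelial marker sum moved with both genes in KO colon, at 15930, 29800 and 15430 CPM in replicates 1, 2 and 3, against 20810 to 22720 CPM in WT. Its part was not tested.

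In LPMC both inhibitory Smads were nearly constant. Smad6 was at 18.21, 16 and 15.77 CPM in WT and 15.36, 14.15 and 14.29 CPM in KO, a spread of 1.29-fold over the 6 libraries. Smad7 was at 54.03, 49.57 and 55.19 CPM in WT and 56.67, 61.06 and 56.53 CPM in KO, a spread of 1.23-fold. In each gene the genotypes did not overlap, Smad6 being lower in KO (-0.20, SE 0.12) and Smad7 higher (0.13, SE 0.09). Neither was called (adjusted p = 0.998 for both, edgeR), and 7.41% of 19426 genes did not overlap in this comparison, against 2 of the 10 members. Between tissues, neither Smad6 (-0.01, SE 0.22, adjusted p = 0.963) nor Smad7 (0.50, SE 0.20, adjusted p = 0.0511) was called by edgeR.

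**Figure D3:**
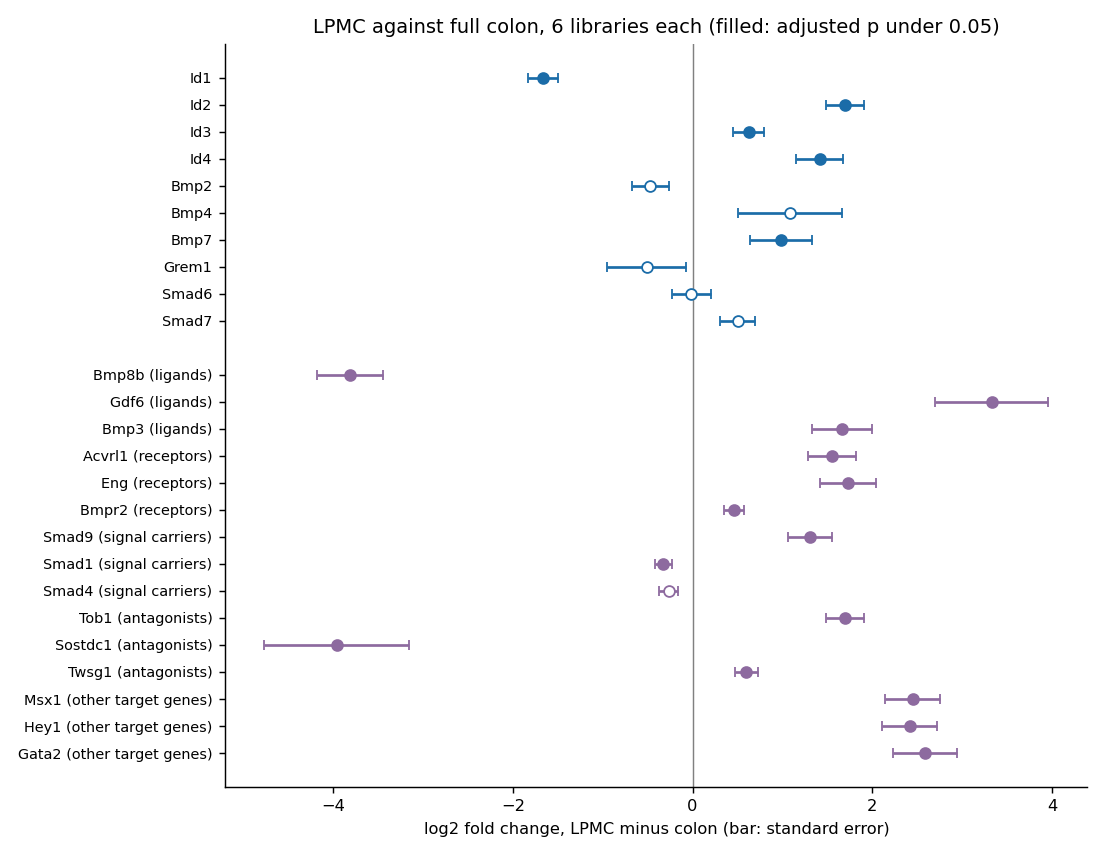
Log2 fold change of LPMC minus full colon (x axis; point, with a bar of 1 standard error) for the 10 members and the other pathway genes named by role, from 6 libraries of each tissue; filled points passed an adjusted p of 0.05. Id1 lies to the left at -1.66 while Id2, Id3 and Id4 lie to the right.

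Between genotypes in colon, 3 of the 10 members did not overlap (Id1 and Id3 lower, Grem1 higher), against 14.3% of 19303 genes. None was called, against 0.00518% of genes, which is 1 gene. Since Id1 was chosen on this contrast, nothing is read from those counts. The members' median was -0.15 and that of all genes 0.01. In LPMC, 0 of 10 were called, against 0.0103% (2 genes), and the medians were -0.07 and 0.00. At an unadjusted p under 0.05, 1504 genes in colon and 513 in LPMC passed, and DESeq2 called 22 and 32 genes. The LPMC genotype difference minus that of colon was 1.12 (SE 0.33) for Id1, 1.01 (SE 0.35) for Id3 and -1.03 (SE 0.87) for Grem1. These values include the colon contrast that chose Id1, so they are descriptions. No gene was called for a difference between tissues in the genotype effect (0% of 20989, with 985 at an unadjusted p under 0.05 and 3 called by DESeq2).

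In the colon, the difference between KO and WT moved with the length of a gene's exons, and Id1 and Id3 are short genes. Among protein-coding genes in the length class of Id1, which reaches 1500 exon bases, the median log2 fold change was -0.39, and among those over 7000 bases it was 0.19. In its class, 8 of 381 genes (2.1%) were at or below the value of Id1, which has 1160 exon bases and was chosen for that low value, so nothing is read from its place. For Id3, with 1791 bases, 28 of 579 genes (4.84%) of its class were at or below its value in the same contrast. Ribosomal protein genes, which are short, were lower in KO colon for 80 of 80 genes (median -0.58). With the trend on exon length removed from each library, the colon difference was -0.78 (SE 0.19) for Id1 and -0.87 (SE 0.22) for Id3, and the tissue differences were -1.16 for Id1 (adjusted p = 8.3e-05) and 0.95 for Id3 (adjusted p = 0.000546), by edgeR. In LPMC the same medians between genotypes ran only from -0.12 for the shortest to 0.07 for the longest genes. Between LPMC and colon the trend was widest, with medians from -0.61 for the shortest to 0.27 for the longest genes. With the trend removed, the same 5 members were called between tissues. The part of RNA or library quality in the trend was not tested.

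**Figure D4:**
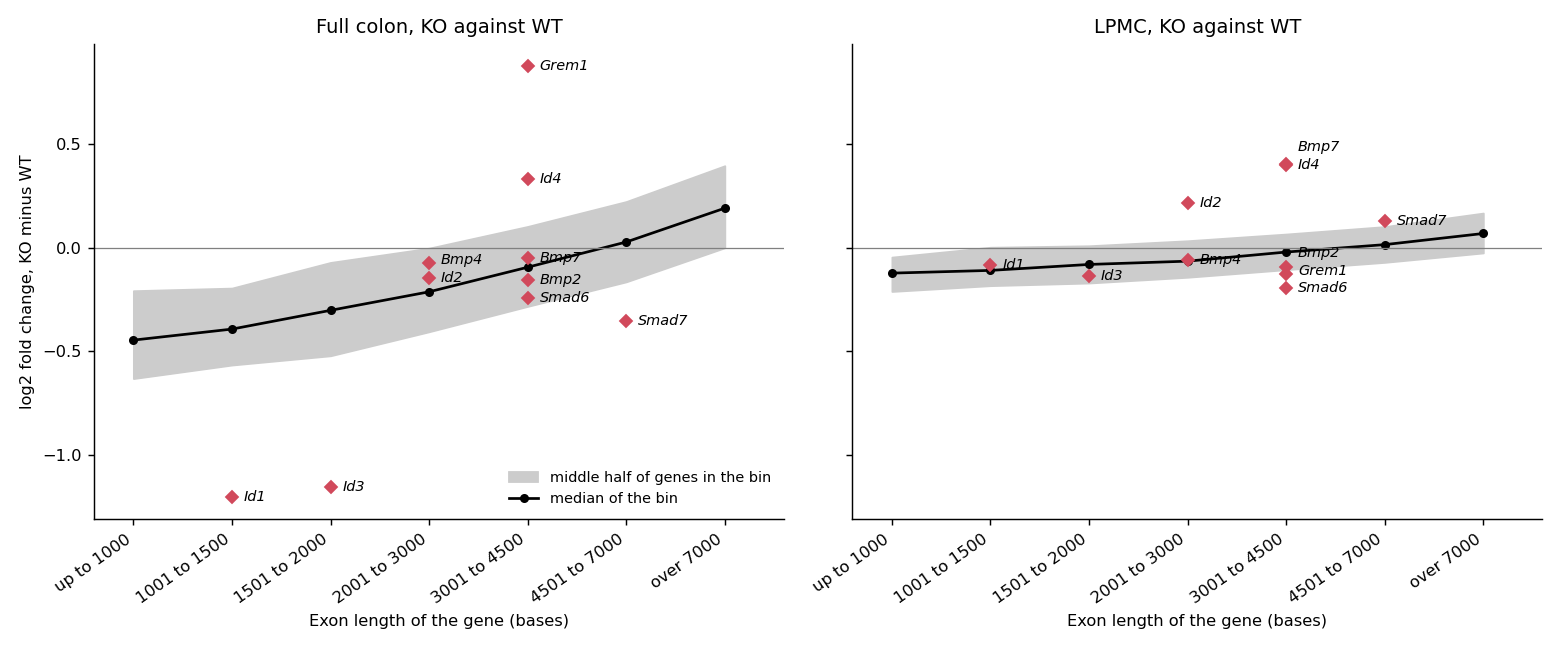
Log2 fold change of KO minus WT (y axis) by exon length in bases (x axis) for full colon and LPMC; the black line is the median of protein-coding genes in each length class, the grey band the range between their quartiles and the diamonds the 10 members. In colon the median climbs from -0.45 to 0.19 with length. Id1, Id3 and Smad7 lie below the band there, and Grem1 and Id4 above it.

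The genes whose levels followed Id1 most closely were found by Pearson's r of log2 CPM over the 12 libraries after the mean of each tissue was taken out. Among 12182 genes, the closest were Pym1 (r = 0.95), Taf12 (0.95), Gpatch11 (0.95) and the ribosomal protein genes Rps13 (0.94) and Rpsa (0.94). Id3 was the closest member (r = 0.91, rank 39), with 0.93 within colon and 0.80 within LPMC. The points share libraries, depth and the exon length trend, and Id1 was chosen for its genotype difference, so these are descriptions. The other members followed Id1 less: 0.46 for Smad7, 0.40 for Bmp2, 0.38 for Id2, 0.26 for Smad6, 0.16 for Bmp4, 0.08 for Bmp7, -0.30 for Id4 and -0.37 for Grem1. Of the other pairs, Smad6 and Smad7 stood at 0.84, Bmp4 and Bmp7 at 0.76 and Bmp4 and Grem1 at 0.72. The lowest was Id4 with Smad6, at -0.65.

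A list of 48 other BMP pathway genes was read in the same fits. In LPMC against colon, 24 of the 44 tested were higher, 7 lower and 13 did not pass, with a median of 0.60. Over all genes, 25.4% were called higher and 24.9% lower. Of 8 genes listed as ligands and tested, 5 were higher and 1 lower. These 8 include Bmp1, which despite its name is a protease and not a BMP ligand. Bmp3, an atypical ligand that opposes BMP signalling, was higher by 1.66 (SE 0.33, adjusted p = 0.00193, edgeR), but was not called among KO libraries alone (1.06, adjusted p = 0.108). Gdf6 was higher by 3.33 (SE 0.63, adjusted p = 0.00134, edgeR) on very few reads, 0 to 16 counts per colon and 16 to 54 per LPMC library. Bmp8b was lower by 3.81 on the log2 scale (SE 0.37, adjusted p = 1.92e-05, edgeR), from group means of 22.48 CPM in WT and 19.07 CPM in KO colon to 1.253 and 1.744 CPM in LPMC. Bmp8b and Bmp8a are close paralogs, and how reads were split between them is uncertain.

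Of the 10 receptors and co-receptors, 7 were higher in LPMC and 0 lower, beside 25.4% and 24.9% of all genes. The endothelial receptor Acvrl1 was higher by 1.55 (SE 0.26) and its co-receptor Eng by 1.73 (SE 0.31), with adjusted p = 0.000664 and 0.00111 by edgeR. Summed endothelial markers moved with them, at 38.23 to 102.8 CPM in colon and 151.5 to 406.7 CPM in LPMC, and their part was not tested. The type 2 receptor Bmpr2 was higher by 0.47 (SE 0.11, adjusted p = 0.00573, edgeR), but with the exon length trend removed by 0.11 only (adjusted p = 0.394), and it was not called among KO libraries alone (0.33, adjusted p = 0.147) or without the libraries that stood apart (0.36, adjusted p = 0.0521). Of the 4 carriers, Smad9 was higher by 1.31 (SE 0.25, adjusted p = 0.00133) and Smad1 was lower, at -0.32 (SE 0.09, adjusted p = 0.0145), both by edgeR. Smad1 was not called among WT libraries alone (-0.22, adjusted p = 0.219). Smad4, the shared partner, was at -0.27 (SE 0.11, adjusted p = 0.0621, edgeR).

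Antagonists and negative regulators went both ways, with 6 of 15 higher in LPMC and 4 lower, beside 25.4% and 24.9% of all genes. Twsg1, a secreted BMP-binding protein, was higher by 0.60 (SE 0.13, adjusted p = 0.00266, edgeR). Tob1, a transducer that dampens Smad activity, was higher by 1.70 (SE 0.21, adjusted p = 0.000106, edgeR), and the secreted inhibitor Sostdc1 was at -3.96 (SE 0.80, adjusted p = 0.00205, edgeR), with 0 to 30 counts per LPMC library. Of the 7 other target genes tested, 5 were higher and 1 lower, beside the same shares of all genes. The transcription factor genes Msx1 (2.45, SE 0.31, adjusted p = 0.000101), Hey1 (2.42, SE 0.31, adjusted p = 0.000124) and Gata2 (2.59, SE 0.35, adjusted p = 0.000177) were all higher in LPMC by edgeR, the opposite of Id1. They were named for their lowest p in this comparison, and the 1 target called lower went the way of Id1. Their colon reads were few, at 8 to 38 counts per library for Msx1, 34 to 139 for Hey1 and 28 to 182 for Gata2.

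Between genotypes, 0 of 41 tested pathway genes were called in colon and 0 of 43 in LPMC, with medians of 0.19 and -0.09. In colon 8 of the 41 did not overlap, beside 14.3% of all genes. Bmp8a is named here after its values were seen. It was at 3.042, 1.185 and 2.952 CPM in WT colon and 4.253, 6.462 and 4.452 CPM in KO colon, and in LPMC at 4.358, 3.802 and 4.664 CPM in WT and 5.58, 9.136 and 6.131 CPM in KO. Bmp8a was higher in KO without overlap in both tissues, by 1.06 (SE 0.43) in colon and 0.69 (SE 0.25) in LPMC, with adjusted p = 0.632 and 0.998 by edgeR. It was the only pathway gene of the 43 tested in LPMC whose genotypes did not overlap there, beside 7.41% of all genes.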

How the data were processed

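Per the labels, the library kit was for stranded mRNA and the sequencer a HiSeq. Per the submitters' processing notes, STAR and the build mm10 (GRCm38) were used. The versions, counter, annotation and strand setting were not given in the sources used here. A single table was deposited by the authors, of read counts per Ensembl gene, not normalized, with 54109 identifiers and 0 rows naming no gene. Of these, 54042 matched GENCODE M21, which gave symbols, coordinates and exon lengths. Entries of 2 (24184) outnumbered entries of 1 (8495), as when mates are counted separately, so counting error exceeds what the counts imply.

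Groups and replicate numbers came from the titles. Counts were tested with edgeR 4.0.16 (TMM, filterByExpr with a minimum count of 10, robust quasi-likelihood fit, Benjamini-Hochberg adjustment) in R 4.3.3: KO against WT within each tissue, and LPMC against colon and the interaction over all 12 libraries. DESeq2 1.42.0 was an alternative. The tests were also run on counts simulated from the means and dispersions of these same fits, and nothing is read from that outcome here. Replicate libraries differed by more than sampling noise, so all 12 were kept.

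The members and gene lists were chosen with earlier results of these data known. Named were all members, up to 3 other pathway genes per role with the lowest p in LPMC against colon plus any called between genotypes, and the 5 genes most correlated with Id1 (mean log2 CPM of at least 1). Of the pathway list, 1 gene is not reported here and was left out of its counts.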

Additional observations from a re-analysis of the deposited data

How the results depend on the processing

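Between genotypes in colon and in LPMC, and for the interaction, the number of members called was 0 under every setting tried. In LPMC against colon it was 5, and 6 with no filter on low counts (adding Smad7 at 0.50). It was 8 with LPMC replicates WT 3 and KO 2 and colon replicates WT 1 and KO 2 left out (adding Bmp2 at -0.51, Bmp4 at 1.42 and Smad7 at 0.76). It was 3 among WT libraries only (Id3 0.12 and Bmp7 0.76 not called), and 4 to 7 with each library left out in turn. Leaving out those libraries together and removing the exon length trend were chosen after seeing the data. Id1, Id2 and Id4 kept their tissue calls in each of the 12 fits that left out a library. In the whole table, colon calls were 1 (DESeq2 22, all 12 libraries in 1 fit 2, without colon KO 2 0), LPMC calls 2 (DESeq2 32, no filter on low counts 4, without the libraries that stood apart 5, 1 without LPMC WT 1 or LPMC KO 1), interaction calls 0 (DESeq2 3) and tissue calls 10549 (KO libraries only 5893).

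Deviations of same-numbered libraries from their group means correlated at -0.133 to 0.042 between WT and KO colon and -0.23 to 0.24 between WT and KO LPMC. Between colon and LPMC they were 0.135, 0.081 and 0.163 in WT and 0.064, 0.303 and 0.182 in KO, all positive but not all over 0.1, so the numbers were not taken to pair libraries. Every WT library correlated best with its own number across tissues, a hint from the data and not the design, but colon KO replicate 1 did not (0.191 with LPMC KO replicate 3). With a replicate block, calls over all genes were 0 in colon and 0 in LPMC, and members called were 0, 0 and, between tissues, 6 (Smad7 at 0.53). Directions that turned under the block were Bmp4 (0.068) in LPMC, Id4 (-0.012) and Bmp4 (0.0946) in the interaction, and Smad6 (0.0028) between tissues.

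Other reversals were of values that had not been called, and their cause was not tested. With the length trend removed they were, in colon, Id2 (0.0682), Bmp4 (0.22) and Bmp7 (0.0259), in LPMC Id1 (0.0119) and Bmp4 (0.0218), in the interaction Id4 (-0.0117), Bmp2 (-0.0255) and Smad6 (-0.0302), and between tissues Smad6 (0.0727). Without the libraries that stood apart they were Bmp4 (0.31) and Bmp7 (0.52) in colon, Id1 (0.0302) in LPMC, Bmp7 (-0.17) in the interaction and Smad6 (0.36) between tissues. DESeq2 and its size factors turned Bmp4 in the interaction (0.0066 and 0.0047). WT libraries only turned Grem1 (0.0015) and KO libraries only Smad6 (0.0059) between tissues.

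Leaving out 1 library turned some uncalled values. In colon the ranges were -0.36 to 0.0782 for Bmp2, -0.28 to 0.25 for Bmp4, -0.56 to 0.33 for Bmp7, -0.53 to 0.0788 for Id2, -0.0382 to 0.70 for Id4 and -0.72 to 0.0379 for Smad6. In LPMC they were -0.33 to 0.13 for Bmp2, -0.58 to 0.61 for Bmp4, -0.54 to 0.48 for Grem1, -0.34 to 0.0565 for Id1 and -0.28 to 0.0207 for Id3. In the interaction they were -0.17 to 0.28 for Bmp2, -0.52 to 0.66 for Bmp4, -0.30 to 0.43 for Id4 and -0.23 to 0.51 for Smad6, and between tissues -0.13 to 0.20 for Smad6. Id1 in colon stayed between -1.37 and -0.98. The low depth of Gdf6, Sostdc1, Msx1, Smad9, Hey1, Gata2 and Id4 limits the precision of their folds.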
